A study of Mus musculus with 21 samples.

Results

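Gene expression in mouse lung after repeated instillation of vitamin E acetate (VEA) at the middle of 3 doses, 6.25, was compared with that after 10% ethanol, which the labels name as the VEA control. The comparison takes the 3 libraries labelled VEA 6.25 (animals 63, 64 and 65) and the 3 labelled 10% ethanol (animals 12, 13 and 14), which are 6 of the 21 libraries of the study, and describes all genes measured. All animals were C57BL/6 mice that received 50 µL into the trachea once daily, 14 days running, with the lungs taken on day 15, and RNA came from tissue left after the airways had been washed by bronchoalveolar lavage. The saline animals (6, 8 and 10), which the labels name as the control of another agent, propylene glycol, and the VEA animals at 3.12 and 12.5 (3 each) are used beside them. The dose numbers carry the unit mg/kg in the labels but mg/mL in the series text, and are therefore given here with no unit. Age, sex and genetic changes are not stated, each library came from 1 animal, and what VEA was given in is not stated, so every difference below is one from animals given 10% ethanol. Lavage removes part of the cells that lie loose in the airspace.

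VEA is the acetate ester of vitamin E, a thick oil used to dilute cannabis vaping liquids. Oil that reaches the alveoli is taken up by macrophages, which clear lipid and surfactant there through scavenger receptors, lysosomes and cholesterol export. Club cells, the secretory and detoxifying cells of the small airways, hold most of the cytochrome P450 of the mouse lung, and carboxylesterases are the kind of enzyme that splits esters.

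The 6 libraries held 9101945 to 9960450 counts, and 14843 to 15895 genes had at least 1 count, with the fewest in VEA animal 65. Ribosomal Rn45s took 18.5% to 21.3% of counts in ethanol and 22.1% to 26.1% in VEA 6.25, and haemoglobin transcripts took 8.49% to 10.5% and 5.76% to 7.33%. The lung markers chosen to check the tissue were all present: Sftpc of type II cells, for example, stood at 18686, 15623 and 15223 CPM (counts of the gene scaled to a fixed library size, here the TMM size) in ethanol animals 12, 13 and 14 and at 13733, 13926 and 13731 CPM in VEA animals 63, 64 and 65, and Ager of type I cells at 2737, 2695 and 2361 and at 2432, 2578 and 2889 CPM. Values of 3 animals are given in these orders throughout. Changes are log2 fold changes of VEA over ethanol ± SE, and each adjusted p is the Benjamini-Hochberg value of the edgeR quasi-likelihood test over 14727 genes, with a gene called below 0.05. Gene positions are on GRCm38 from GENCODE M21. A level of 5 CPM stood for 41.5 to 47.7 counts in these libraries. The labels do not say that the animals of a group came from separate cages or days. The p-values rest on the spread between animals within groups, estimated over all 21 libraries. In whole lung, fewer cells of a type and less RNA per cell cannot be told apart.

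Of the genes tested, 849 were called (5.76%), 517 higher in VEA 6.25 (3.51%) and 332 lower (2.25%). The shares of 3.51% and 2.25% belong beside each count of called list members below. The lists, of genes by function or cell type, were written with part of these results known, which can raise their called shares. The median called rise was 1.95-fold (log2 0.97) and the median called fall 1.73-fold (log2 -0.79), while the median over all genes tested was 0.00 on the log2 scale. A log2 change of at least 1 was seen in 252 of the called rises and 119 of the called falls, and one of at least 2 in 92 and 14. The 3 animals of each group did not overlap in 827 of the 849 called genes, against 3464 of all genes tested (23.5%). At an unadjusted p below 0.05 there were 2749 genes. The number called fell to 478 without ethanol animal 12, 478 without ethanol animal 13, 427 without VEA animal 64 and 429 without VEA animal 65, and of the 849 genes 444, 438, 404 and 398 remained called. Of 191 called genes chosen for naming, 92 kept their call under every alternative except a fold threshold, and the genes named below are among these 92 unless the alternatives that ended the call are given. Removal of ethanol animal 13 and VEA animal 65 together is not repeated below for every gene. It also ended the calls of Actb (adjusted p = 0.165), Cxcl2 (0.134), Trem2 (0.133), Tnf (0.0886), Adamts5 (0.115), Cdk1 (0.260) and Foxj1 (0.426). Also lost were Sema3a (0.104), Vwf (0.230), Tcap (0.267), Upk1b (0.144), Ftl1 (0.176), Gpx2 (0.302) and Gsta2 (0.172). The others were Ces1d (0.233), Cyp4f15 (0.3745), Dcdc2a (0.255), Micalcl (0.238), Cyp1a1 (0.0796), Irf1 (0.234) and Bnip3 (0.1995). DESeq2 gave no adjusted p for 2 of the 191, which were not counted as lost there.

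**Figure D1:**
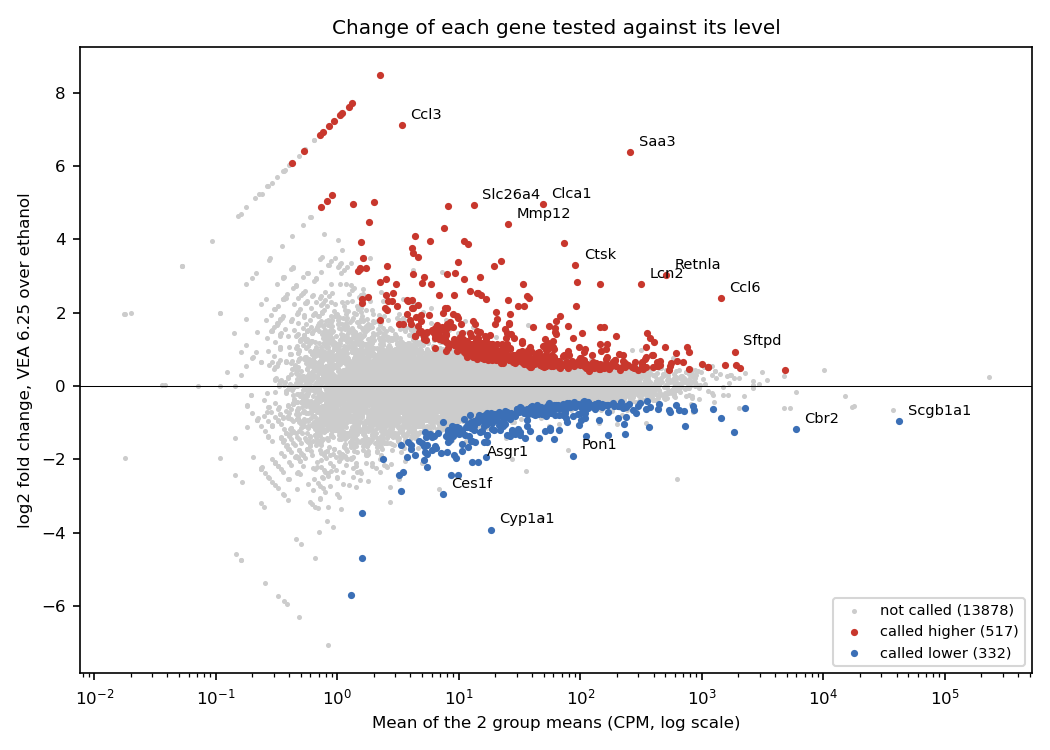
The log2 fold change of VEA 6.25 over ethanol (vertical axis) is plotted for each of the 14727 genes tested against the mean of the group means in CPM (horizontal axis, log scale), with called genes in red (517 higher) and blue (332 lower). Saa3 and Clca1 stand apart among rises at moderate to high levels, and Scgb1a1 is the most abundant called gene; the red and grey diagonal at the upper left holds genes with few or no counts in ethanol.

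The largest rises were taken among called genes of at least 5 CPM whose VEA and ethanol animals did not overlap. They included secreted immune and airway proteins. Saa3, an acute phase apolipoprotein made in the lung, stood at 2.52, 8.21 and 7.44 CPM in the ethanol animals and at 241, 719.8 and 565 CPM in the VEA animals. VEA animal 63 was the lowest of the 3 and still far above every ethanol animal, and the rise was 6.39 ± 0.73 on the log2 scale. Clca1, a secreted regulator of airway mucus and chloride channels, was at 2.20, 5.83 and 1.08 CPM against 88.8, 90.0 and 105 CPM, a rise of 4.96 ± 0.69 (adjusted p = 0.000617). Slc26a4 (pendrin, an anion exchanger of airway epithelium, chr12:31519827-31559969) was below 2 CPM in every ethanol animal (1.32, 0.864 and 0.324) and at 26.8, 30.7 and 20.0 CPM after VEA, 30.6-fold higher. Tnfrsf9 (CD137, a costimulatory receptor of activated lymphocytes and myeloid cells) rose 15.5-fold, from 2.31, 1.08 and 0.647 CPM to 15.6, 29.0 and 18.1 CPM (adjusted p = 8.29e-10). Wfdc17, a small secreted protein of activated macrophages, went from 8.34, 12.3 and 7.01 CPM to 112, 158 and 144 CPM. Ly6i, a surface protein of the Ly6 family, was at 0.659, 0.432 and 0.971 CPM and at 9.07, 13.3 and 10.2 CPM, and its near-identical relatives make the split of reads between them uncertain. In absolute terms the chemokine Ccl6 (chr11:83587882-83593087) had the largest rise of the genes in this set that could be named. It went from 357, 524 and 488 CPM to 2195, 2739 and 2246 CPM (2.39 ± 0.19, adjusted p = 6.12e-10). Actb, Sftpd, Retnla and Fth1 had the next largest rises in CPM. Fth1, the ferritin heavy chain, was at 1363, 1516 and 1708 CPM in ethanol and at 1963, 2482 and 2383 CPM in VEA, and its call ended without animal 12 or 64 (adjusted p = 0.0673 and 0.0627) and without animals 13 and 65 together (0.115). Actb, often used as a reference gene, was at 4127, 4149 and 4078 CPM against 4886, 6559.9 and 5262 CPM (0.44 ± 0.13, adjusted p = 0.0441), and that call ended without animal 12, 13, 14, 64 or 65 (adjusted p = 0.118, 0.120, 0.113, 0.307 and 0.0704) and with no count filter (0.0664).

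**Figure D2:**
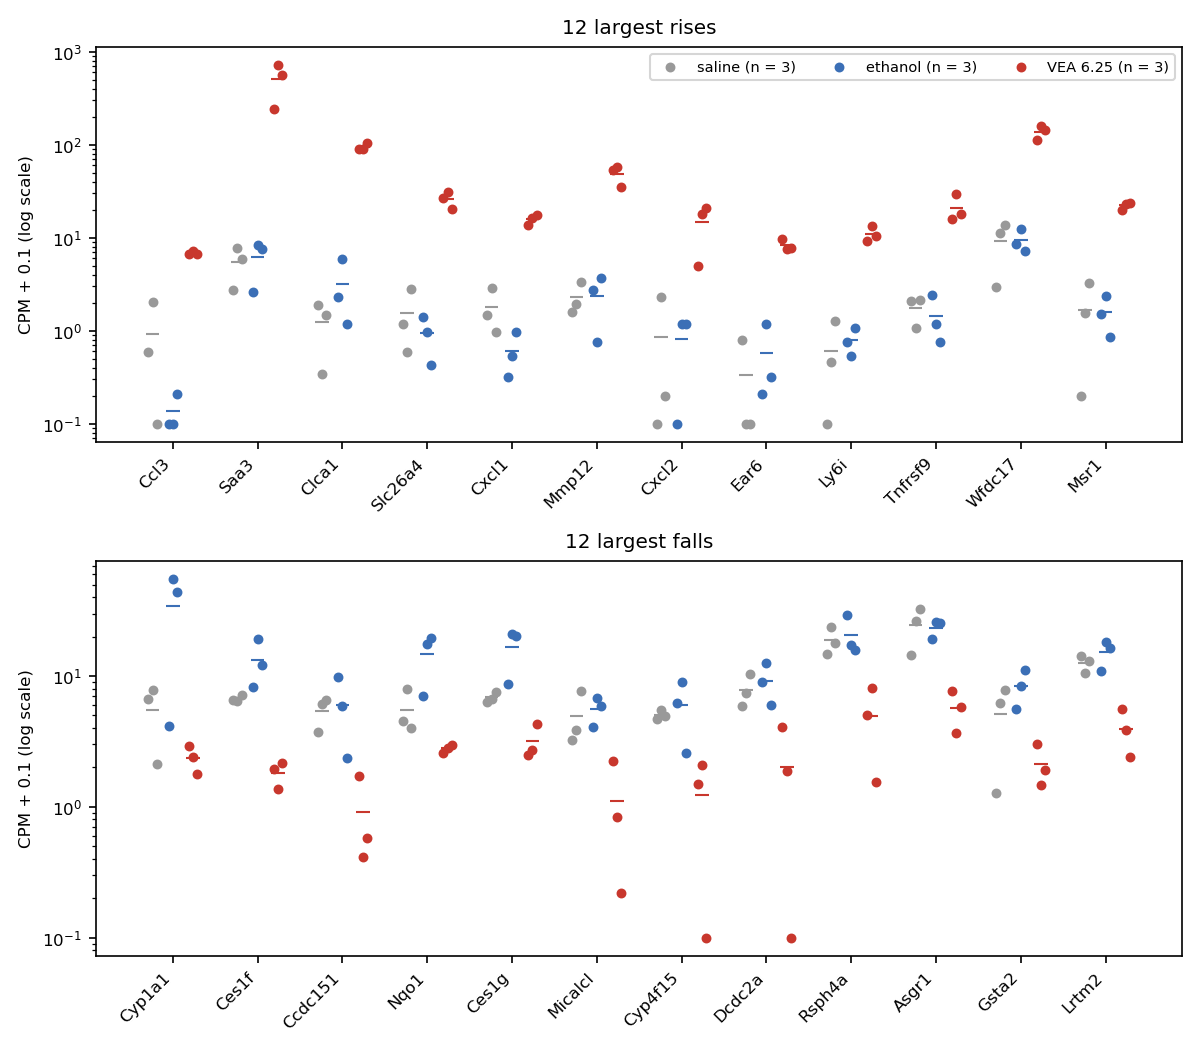
Each point is 1 animal's level as CPM + 0.1 on a log scale for the 12 largest rises (top) and 12 largest falls (bottom), in saline, ethanol and VEA 6.25 (n = 3 each), with a line at each group's mean. These genes were chosen among called genes whose VEA and ethanol animals do not overlap. For Cyp1a1 ethanol animal 12 lies near the saline animals while animals 13 and 14 lie above them.

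Chemokines of several families were among the rises. In the list of chemokines that attract neutrophils and their receptors, 4 of 8 tested members rose and none fell (median 1.91, all tested genes 0.00). The share called higher was 50.0%, beside 3.51% of all genes. Cxcl1 (chr5:90891241-90893115) was at 0.220, 0.432 and 0.863 CPM in ethanol and at 13.6, 16.1 and 17.5 CPM in VEA, a 30.3-fold rise (4.92 ± 0.49, adjusted p = 1.69e-08). Its neighbour Cxcl2 (chr5:90903871-90905938) was at 0, 1.08 and 1.08 CPM against 4.86, 17.7 and 20.8 CPM, with VEA animal 63 well below the other two. The call of Cxcl2 (adjusted p = 0.0170) ended without animal 12, 13, 64 or 65 (adjusted p = 0.0596, 0.0577, 0.0549 and 0.0614). Cxcl5, an epithelial chemokine for neutrophils, rose from 7.57, 2.05 and 1.83 CPM to 31.1, 59.8 and 31.0 CPM (3.41 ± 0.55, adjusted p = 0.00164). The receptor Cxcr1 had 3 counts in ethanol and 106 in VEA, summed over the 3 libraries, a ratio of 36.0 with a 95% counting interval of 12.0 to 177, which covers counting error only. The promoters of Cxcl1 and Cxcl2 are shown here because these genes lie side by side and were both called higher. They are the RefSeq windows on GRCm38.p6 from 250 to 31 bases before the annotated start, both on the plus strand, chr5:90890995-90891214 and chr5:90903649-90903868. Capitals mark matches to an NF-kB motif, GGG followed by any 2 bases and TTTCC, searched on both strands, of which each window holds 2. Motifs of C/EBP, the aryl hydrocarbon receptor and NRF2, and windows of the other largest changes, were searched as well and are not shown.
Cxcl1: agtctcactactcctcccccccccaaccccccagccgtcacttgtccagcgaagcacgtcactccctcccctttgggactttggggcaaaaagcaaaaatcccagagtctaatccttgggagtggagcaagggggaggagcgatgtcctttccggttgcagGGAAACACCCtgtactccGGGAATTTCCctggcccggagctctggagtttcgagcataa
Cxcl2: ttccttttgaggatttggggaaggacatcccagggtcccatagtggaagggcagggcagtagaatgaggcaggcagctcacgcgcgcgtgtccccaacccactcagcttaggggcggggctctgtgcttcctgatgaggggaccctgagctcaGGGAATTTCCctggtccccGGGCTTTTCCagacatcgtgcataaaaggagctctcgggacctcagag
In Cxcl1 the matches lie 89 to 80 bases before the start on the minus strand and 71 to 62 on the plus strand. In Cxcl2 they lie 97 to 88 and 78 to 69 bases before the start, both on the plus strand. The motif occurred within 250 bases before the start in 199 of 11073 tested genes with a window (1.80%), in 11 of 380 genes called higher (2.89%) and in 5 of 244 called lower (2.05%), and a match is a description of letters only.

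Among CC and other chemokines, 9 of 22 tested members rose and none fell (40.9%, beside 3.51% of all genes, median 1.57). Ccl3, which attracts monocytes and macrophages, had 1 count in ethanol (3 libraries summed) and 183 in VEA. The ratio was 187, with a counting interval of 33.1 to 7408. Its levels after VEA were close together, 6.58, 7.02 and 6.63 CPM, while the saline animals were at 0.493, 1.95 and 0 CPM, and the call ended without animals 13 and 65 together (0.0668). Ccl7, a monocyte chemokine, went from 0.878, 0 and 0.971 CPM to 3.89, 9.85 and 9.64 CPM (3.63 ± 0.59, adjusted p = 9.85e-05). Ccl9 was at 11.1, 13.9 and 8.31 CPM in ethanol and at 45.9, 61.1 and 77.2 CPM in VEA. Ccl17 and Ccl22, ligands of the receptor CCR4 made by dendritic cells and macrophages, rose 4.53-fold and 7.87-fold: Ccl17 from 11.3, 14.7 and 11.3 CPM to 40.5, 68.4 and 60.2 CPM. For Ccl22 the levels were 1.10, 0.972 and 1.40 CPM and 7.66, 11.7 and 8.19 CPM. Ccl8 rose from 5.34 to 27.9 CPM (means) and Cxcl16, a scavenger receptor and chemokine in one protein, from 53.3 to 104 CPM. Ccl2, the main ligand of CCR2 and named after its values were seen, was at 2.31, 0.756 and 1.40 CPM against 9.39, 18.01 and 11.4 CPM and missed the threshold (adjusted p = 0.0516). Ccr2 itself, the receptor of inflammatory monocytes, rose from 31.3, 41.3 and 32.3 CPM to 77.9, 75.6 and 53.1 CPM (adjusted p = 0.000239). In the list of chemokine receptors, 2 of 14 tested rose (14.3%), or 1 without animal 12, and 1 fell (7.14%). Ccrl2 was 1.87-fold lower, and its call ended without animal 13 or 64 (adjusted p = 0.0761 and 0.0562) and without animals 13 and 65 together (0.166).

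Macrophage genes were among the rises in several lists. These lists share members, so their counts are not independent. Chil3, for example, is in both the recruited and the resident alveolar list, and Ctsk and Atp6v0d2 are in the alveolar, foamy macrophage and lysosome lists. Of recruited monocyte and macrophage markers, 12 of 28 tested were called higher and none lower (42.9%, beside 3.51% of all genes), with a median of 0.94. The complement components C1qa, C1qb and C1qc, which tissue macrophages make, rose together: C1qa from 32.8, 34.1 and 25.8 CPM to 96.4, 84.4 and 94.8 CPM (1.57 ± 0.17, adjusted p = 3.16e-08). C1qb rose 2.78-fold and C1qc 2.02-fold. Ms4a7, a marker of monocyte-derived macrophages, went from 4.50, 4.10 and 1.83 CPM to 25.3, 23.0 and 14.7 CPM, and Clec5a, a myeloid lectin receptor, from 5.93, 2.70 and 1.62 CPM to 18.2, 37.6 and 24.2 CPM. The markers of resident alveolar macrophages split: 5 of 21 rose and 1 fell, with a median of 0.09. Ctsk, a lysosomal protease, was at 22.7, 11.7 and 15.9 CPM in ethanol and at 163, 184 and 149.6 CPM in VEA, and Atp6v0d2, a proton pump subunit, at 48.5, 48.3 and 53.3 and at 129, 126 and 115 CPM. Marco, a scavenger receptor of alveolar macrophages, was at 18.8, 31.4 and 36.3 CPM against 100.5, 111 and 113 CPM (1.91 ± 0.38, adjusted p = 0.00868), and its call ended without animals 13 and 65 together (0.0810). Cidec, a protein of lipid droplets that fat cells also express, fell from 38.4, 36.1 and 62.6 CPM to 20.5, 18.4 and 15.4 CPM, while 1 of 10 fat cell markers tested was called, which is Cidec itself. The summed level of the fat cell markers was 432 to 864 CPM in ethanol and 206 to 549.6 CPM in VEA, and its part in the value of Cidec was not tested.

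In the list of lipid-handling and foamy macrophage genes, 14 of 39 tested rose and 1 fell (median 0.38). The shares were 35.9% and 2.56%, beside 3.51% and 2.25% of all genes. The one that fell, Nceh1, named after its values were seen, a cholesterol ester hydrolase (-0.58 ± 0.16), lost its call without animal 12, 13, 64 or 65. Msr1, a scavenger receptor for modified lipoproteins, was at 1.43, 2.27 and 0.755 CPM in ethanol and at 19.5, 23.1 and 23.6 CPM in VEA (3.89 ± 0.55, adjusted p = 0.000238). Lgals3 (galectin 3) rose from 221, 227 and 217 CPM to 390.3, 538 and 475 CPM, and Cd68, a lysosomal glycoprotein of macrophages, from 33.8, 33.4 and 32.4 CPM to 81.2, 78.1 and 65.0 CPM. Gpnmb, Spp1 and Trem2, known from lipid-laden macrophages, were called higher with less stable calls. Gpnmb was at 10.5, 6.59 and 8.63 CPM against 49.2, 70.3 and 57.2 CPM, and its call ended without animals 13 and 65 together (0.0504). Spp1 (osteopontin) was at 18.8, 27.0 and 23.8 CPM against 139.7, 192 and 163 CPM, and its call ended without animals 13 and 65 together (0.0751). Trem2, a lipid receptor, was at 0.220, 2.16 and 3.78 CPM against 12.2, 9.53 and 13.0 CPM, and its call ended without animal 13 (adjusted p = 0.0518). Members that did not pass, named after their values were seen, include the lipid droplet coat Plin2 (92.9, 104 and 99.5 CPM against 100.5, 116 and 119 CPM) and the cholesterol exporters Abca1 (-0.26 ± 0.30) and Abcg1 (0.09 ± 0.19). Fabp5, a fatty acid carrier, was at 197, 208 and 224 CPM against 392, 434 and 426 CPM, with no overlap, and missed the threshold (adjusted p = 0.0564). Of 44 lysosome genes, 11 rose and none fell (median 0.26), 7 rose without ethanol animal 14 and 6 without VEA animal 64. The protease Ctsd went from 429, 447 and 402 CPM to 814, 894 and 695 CPM, and Ctsh rose 1.61-fold (adjusted p = 0.00185). None of 26 tested genes of cholesterol synthesis and uptake was called (median 0.14).

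**Figure D3:**
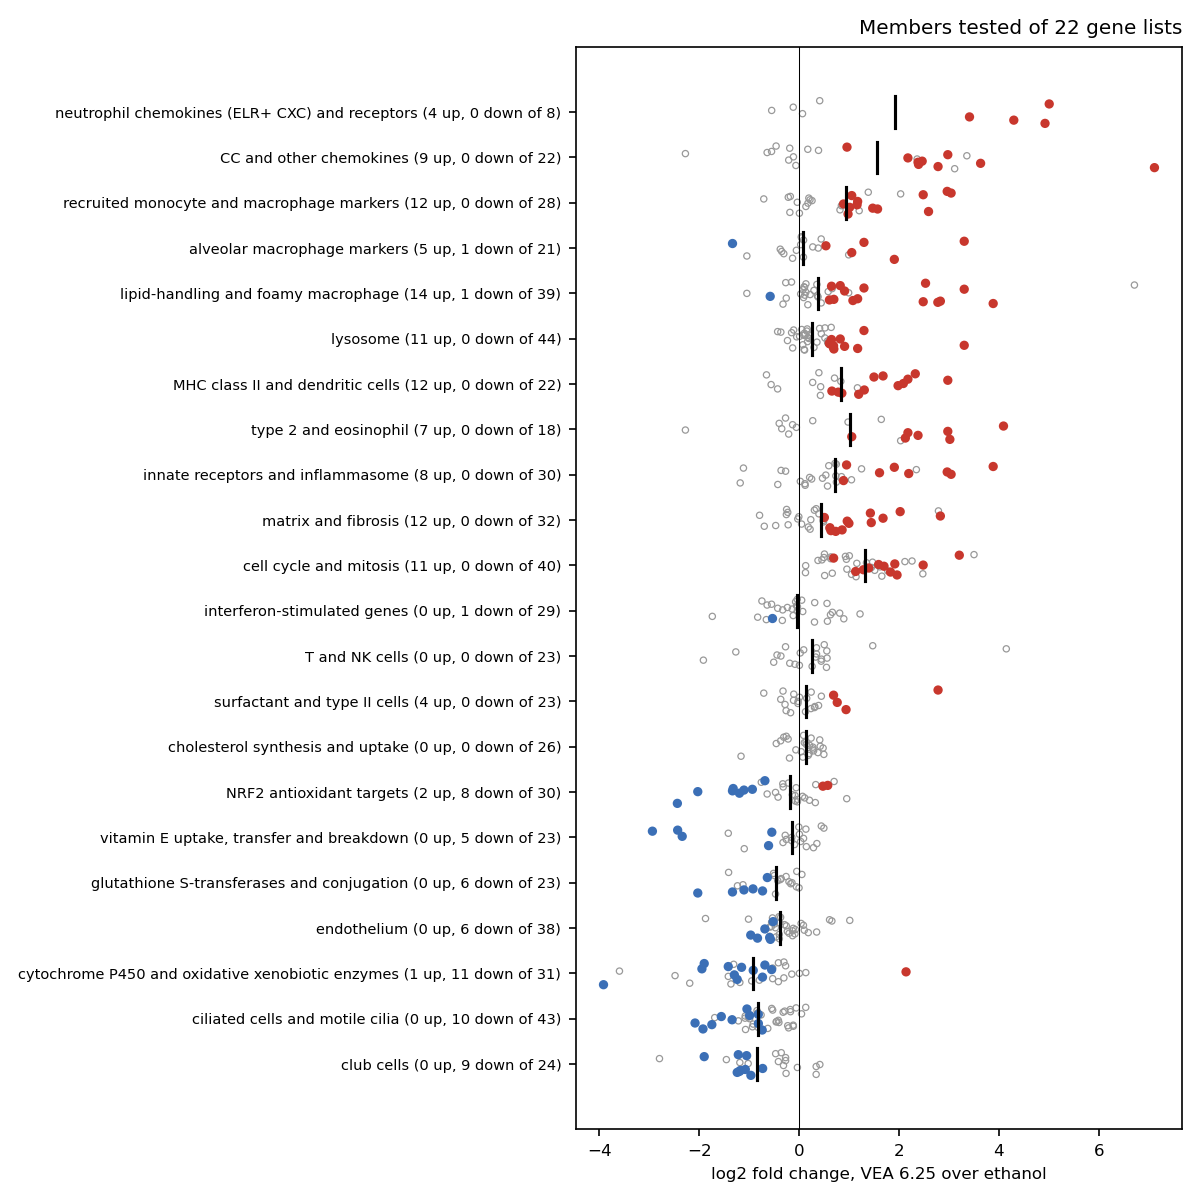
Each point is 1 tested member of a gene list, placed by its log2 fold change of VEA 6.25 over ethanol, filled red (higher) or blue (lower) when called and open when not, with a black line at the list's median. Members of the chemokine, macrophage and MHC class II lists lie mainly to the right, members of the club cell, ciliated cell and P450 lists to the left, and the interferon-stimulated and cholesterol lists sit around 0.

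Receptors of innate immunity and secreted defence proteins were also among the rises. Of 30 innate receptor genes tested, 8 rose and none fell (26.7%, beside 3.51% of all genes). The fungal lectin receptors Clec4n (Dectin-2) and Clec7a (Dectin-1) went from 32.5, 29.8 and 35.8 CPM to 113, 165 and 171 CPM and, for Clec7a, from 75.1, 62.3 and 75.6 CPM to 175, 257 and 218 CPM. Clec4e (Mincle), a receptor for glycolipids, was at 0.988, 1.08 and 0.647 CPM and at 4.75, 8.17 and 9.76 CPM (3.04 ± 0.53, adjusted p = 0.000282). In the acute phase list, 4 of 25 rose. Lcn2, which binds bacterial siderophores, was at 69.9, 102 and 69.0 CPM in ethanol and at 454, 670.2 and 536 CPM in VEA (2.78 ± 0.45, adjusted p = 0.00185), and Chil1, a chitinase-like protein, rose 1.92-fold. Of 24 genes that NF-kB is known to induce as feedback or survival factors, 7 rose and none fell, with 4 called without VEA animal 64 and 4 without VEA animal 65. Among them Bcl2a1b, an anti-apoptotic protein, went from 25.8, 30.7 and 28.1 CPM to 91.8, 99.4 and 100.2 CPM, and its copies Bcl2a1a and Bcl2a1d rose 3.05-fold and 3.10-fold, values that share reads between near-identical genes and are uncertain one by one. Tnf itself had 1 count in ethanol and 45 in VEA, a ratio of 45.9 with a counting interval of 7.82 to 1852, and its call ended without animal 12, 13 or 64 (adjusted p = 0.0988, 0.0999 and 0.162) and in limma-voom (0.242).

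Neutrophil genes did not move as one. Of 25 neutrophil markers tested, 6 rose and 1 fell, and the summed level of the list was 673 to 956 CPM in ethanol and 1364 to 1847 CPM in VEA. The members that rose include Lcn2, Wfdc17 and Wfdc21, which macrophages or epithelium also express, and the collagenase Mmp8, from 4.61, 4.64 and 4.42 CPM to 23.5, 25.7 and 27.6 CPM. Most of the rise in the summed level came from Lcn2, Wfdc17 and Wfdc21. Wfdc21 went from 30.1, 38.1 and 42.3 CPM to 191, 266 and 307 CPM (2.79 ± 0.29, adjusted p = 1.28e-05). G0s2, an inhibitor of fat breakdown, fell from 69.6, 94.5 and 90.5 CPM to 49.2, 44.2 and 53.1 CPM. S100a8 and Retnlg, neutrophil markers named after their values were seen, did not pass: S100a8 was at 115, 203 and 102 CPM against 159, 223 and 292 CPM, and Retnlg at 29.9, 76.9 and 46.4 against 31.8, 31.1 and 30.4 CPM. Elane was listed at 0 in all 6 libraries, and Mpo had 0 counts in ethanol and 3 in VEA.

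Genes of antigen presentation by MHC class II and dendritic cells rose in 12 of 22 tested members, and none fell (54.5%, median 0.85). The share called higher over all genes was 3.51%. The chemokines Ccl17 and Ccl22, given above, are among these 12. The class II chain H2-Ab1 went from 236, 263 and 243 CPM to 677, 584 and 436 CPM (1.19 ± 0.17, adjusted p = 2.24e-05) and its chaperone Cd74 from 238, 200.4 and 210.5 CPM to 562, 599 and 443 CPM. Xcr1, a receptor of conventional type 1 dendritic cells, was at 0.988, 3.78 and 4.21 CPM and at 11.7, 15.8 and 8.07 CPM, and Cd83, a surface marker of mature dendritic cells, at 6.59, 8.42 and 7.01 and at 25.7, 15.8 and 20.8 CPM. Class I presentation and immunoproteasome genes gave no call among 17 tested (median 0.19). In the type 2 and eosinophil list, 7 of 18 tested rose and none fell, of which Ccl8, Ccl17 and Ccl22 were given above. Retnla, a secreted protein of macrophages and epithelium in type 2 responses, rose from 128, 125 and 82.5 CPM to 842, 925 and 945 CPM (3.02 ± 0.37, adjusted p = 0.000155). Chil3 and Chil4, chitinase-like proteins with close sequence and so uncertain one by one, went from 529, 488 and 456 CPM to 1098, 962 and 1001 CPM and, for Chil4, from 3.18, 3.13 and 2.59 CPM to 17.9, 9.53 and 11.6 CPM. Ear6, one of the near-identical eosinophil-associated ribonucleases, was at 0.110, 1.08 and 0.216 CPM against 9.50, 7.54 and 7.59 CPM. Epx, the peroxidase of eosinophils, was listed at 0 in all 6 libraries, and Prg2, their major basic protein, had 1 count in ethanol and 19 in VEA and was not tested. None of 23 T and NK cell genes tested was called, and the summed level of that list was 114 to 142 CPM in ethanol and 135 to 153 CPM in VEA. Of 16 B and plasma cell genes only Jchain, which joins IgA and IgM chains, was called, from 8.01, 8.53 and 8.20 CPM to 65.4, 31.9 and 29.0 CPM (adjusted p = 0.00424), with VEA animal 63 the highest.

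Matrix genes and proteases were among the rises as well. Of 32 matrix and fibrosis genes tested, 12 rose and none fell (37.5%, beside 3.51% of all genes). The rises numbered 7 without ethanol animal 12, 7 without ethanol animal 14 and 6 without VEA animal 64. Eln (elastin) went from 159, 248 and 162 CPM to 598, 504 and 449 CPM (1.45 ± 0.22, adjusted p = 0.000320), Col3a1 (a fibrillar collagen) from 244, 313 and 274 CPM to 539.5, 499.8 and 471 CPM, and Fn1 (fibronectin) from 41.1, 46.0 and 33.6 CPM to 90.2, 84.4 and 66.1 CPM. Lox, which crosslinks elastin and collagen, rose 1.95-fold (adjusted p = 0.00202). The growth factor Igf1 was at 30.5, 36.9 and 36.0 CPM in ethanol and at 96.9, 97.0 and 84.4 CPM in VEA (1.43 ± 0.15, adjusted p = 3.16e-08). Markers of alveolar and adventitial fibroblasts were split, with 2 higher and 4 lower of 24. The number higher was 0 without animal 13 and 1 without animal 14, 64 or 65, and the number lower was 2 without animal 12, 13 or 65 and 1 without animal 64. Inmt, a methyltransferase of alveolar fibroblasts, fell from 2013, 1831 and 1754 CPM to 1139, 876 and 1071 CPM (-0.86 ± 0.14, adjusted p = 0.000137). Among metalloproteinases and their inhibitors, 4 of 19 rose and 1, Adamts5, fell. The call of Adamts5 ended without animal 12, 14, 64 or 65 (adjusted p = 0.0764, 0.102, 0.0915 and 0.107). Mmp12, the macrophage elastase, was at 2.63, 0.648 and 3.56 CPM against 53.4, 57.5 and 34.8 CPM (4.41 ± 0.47, adjusted p = 9.69e-06), and Mmp2, a gelatinase of stromal cells, at 33.5, 37.8 and 43.7 CPM against 88.7, 81.6 and 69.0 CPM.

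Cell cycle genes all lay on the side of a rise, and few single calls were firm. All 40 members tested had a log2 fold change above 0 (median 1.32), and 11 were called (27.5%, beside 3.51% of all genes). The number called was 3 without ethanol animal 12, 7 without 13, 5 without 14, 2 without VEA animal 64 and 3 without 65. Kif23, a motor protein of cell division, kept its call under every alternative and went from 1.76, 3.67 and 2.81 CPM to 10.4, 13.7 and 22.3 CPM (2.48 ± 0.38, adjusted p = 6.24e-05). Cdk1, the mitotic kinase, was at 10.2, 7.34 and 9.71 CPM against 23.0, 36.9 and 37.2 CPM, and its call ended without animal 12, 13, 14, 64 or 65 (adjusted p = 0.0773, 0.120, 0.0821, 0.0911 and 0.0988). Mki67, the common proliferation marker and named after its values were seen, was at 8.89, 6.70 and 8.09 CPM against 16.1, 22.1 and 14.0 CPM and did not pass (adjusted p = 0.0918).

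Genes of the airway epithelium were among the falls. Of 24 club cell genes tested, 9 fell and none rose (37.5%, beside 2.25% of all genes), with a median of -0.85. Scgb1a1, the main secreted protein of club cells (chr19:9083636-9087958), stood at 62351, 59607 and 45259 CPM in ethanol and at 31544, 28165 and 25991 CPM in VEA (-0.96 ± 0.15, adjusted p = 5.94e-05). This was the largest fall in CPM of any gene that could be named, among called genes whose VEA and ethanol animals did not overlap. Cbr2, a carbonyl reductase of club cells, went from 8666, 9605 and 6442 CPM to 3621, 3517 and 3811 CPM, and Cldn10, a tight junction protein, from 71.8, 77.9 and 64.5 CPM to 32.5, 29.5 and 30.1 CPM (-1.22 ± 0.16, adjusted p = 3.75e-06). Among other secretoglobins, Scgb1c1 fell from 34.4, 29.9 and 22.4 CPM to 12.8, 11.6 and 17.5 CPM, while Scgb3a2, named after its values were seen, was at 2751, 2502 and 2023 CPM against 2001, 1715 and 2359 CPM and was not called. Of 43 genes of ciliated cells and motile cilia, 10 fell and none rose, 2 had a log2 fold change above 0, and the median was -0.82. Only 5 of these were called without ethanol animal 12, 2 without ethanol animal 13, 3 without VEA animal 64 and 2 without VEA animal 65. Rsph4a, a radial spoke protein of cilia, was at 29.1, 17.2 and 15.8 CPM against 4.96, 8.06 and 1.45 CPM, and Cfap43, another protein of the ciliary axoneme, at 29.6, 23.3 and 20.7 CPM against 10.0, 10.8 and 8.19 CPM. Ccdc151, which docks outer dynein arms, was at 9.66, 5.83 and 2.27 CPM against 1.62, 0.314 and 0.482 CPM, and its call ended in limma-voom (0.0506). Foxj1, the transcription factor that sets the ciliated fate, was at 40.0, 56.5 and 32.3 CPM against 26.0, 27.0 and 24.1 CPM (adjusted p = 0.0198), and its call ended without animal 13, 64 or 65 (adjusted p = 0.224, 0.0564 and 0.0868).

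The goblet and mucous list gave 2 rises, Clca1 and Slc26a4, among 15 tested. The gel-forming mucin Muc5ac had 0 counts in ethanol and 4 in VEA and was not tested. Muc5b, named after its values were seen, was at 6.59, 3.46 and 2.48 CPM against 9.17, 7.75 and 8.31 CPM, did not overlap and did not pass (adjusted p = 0.227). In the alveoli, 4 of 23 surfactant and type II cell genes rose and none fell (17.4%, beside 3.51% of all genes). Sftpd, the surfactant collectin, went from 1283, 1283 and 1251 CPM to 2154, 2742 and 2428 CPM (0.94 ± 0.15, adjusted p = 0.000102), whereas Sftpb, the surfactant protein that lipid layers need, was at 2532, 2375 and 2616 CPM against 2907, 2866 and 2454 CPM and Sftpc did not pass (adjusted p = 0.405). Muc1 rose from 81.2, 72.6 and 70.8 CPM to 127, 134 and 121 CPM. Of 17 type I cell genes 2 fell. Hopx went from 669.8, 663 and 620.4 CPM to 339, 377 and 527 CPM, and its call ended without animal 64 (adjusted p = 0.0508). The other was Sema3a (-0.53 ± 0.16), whose call ended without animal 12, 13, 14, 63, 64 or 65 (adjusted p = 0.206, 0.0578, 0.05001, 0.0800, 0.140 and 0.0803) and in limma-voom (0.0550). Of the genes of transitional alveolar epithelium, 4 of 23 rose, among them Anxa1 from 128, 96.5 and 100.01 CPM to 189, 231 and 235 CPM (adjusted p = 0.000445).

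Endothelial genes were lower in 6 of 38 tested members and higher in none (15.8%, beside 2.25% of all genes, median -0.39). Kdr, the main receptor for VEGF, fell from 267, 277 and 369 CPM to 199, 145 and 169 CPM (-0.83 ± 0.16, adjusted p = 0.000680). Vwf, the clotting factor of larger vessels, was at 76.1, 135 and 94.8 CPM against 55.6, 59.7 and 41.0 CPM, and its call ended without animal 13 or 65 (adjusted p = 0.0552 and 0.0529). Klf2, a transcription factor that blood flow induces, is not one of these 6 and was named from the immediate early list. In that list 1 of 24 tested rose (4.17%) and 3 fell (12.5%). Klf2 fell from 256, 276 and 392 CPM to 132, 174 and 148 CPM (adjusted p = 0.00297). Markers of tissue that can come with the lung were called lower in 5% (heart and skeletal muscle), 10.0% (mesothelium) and 15.4% (erythroid) of tested members, beside 2.25% of all genes. Of 20 heart and skeletal muscle genes tested, 1 (Tcap) was called lower and none had a log2 fold change above 0, and the summed level was 232 to 559 CPM in ethanol and 116 to 339.6 CPM in VEA, with overlap. Without VEA animal 63 the number called was 7. The call of Tcap ended without animal 13, 14, 64 or 65 (adjusted p = 0.0828, 0.0707, 0.0769 and 0.118) and in limma-voom (0.0654). Erythroid genes summed to 89024 to 113693 CPM against 58601 to 81813 CPM, with 2 of 13 called lower and at most 1 when any single animal was left out. Mesothelial markers summed to 725 to 772 CPM against 442 to 639 CPM, with 1 of 10 called lower, Upk1b, whose call ended without animal 13, 63 or 64 (adjusted p = 0.120, 0.0704 and 0.0895). Without animal 65, 3 of these markers were called. The part of these in the falls of other genes was not tested.

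Genes that process foreign compounds fell in several families. Of 31 cytochrome P450 and oxidative enzyme genes tested, 11 fell and 1 rose (35.5% lower, beside 2.25% of all genes, median -0.92). The falls numbered 7 without VEA animal 65. The one that rose, Cyp7b1, named after its values were seen, an oxysterol hydroxylase (2.14 ± 0.56), lost its call without animal 13, 14 or 63. Cyp2f2, the P450 most abundant in mouse club cells, went from 2523, 3237 and 2019 CPM to 1281, 1041 and 975 CPM (-1.24 ± 0.20, adjusted p = 0.000310), and Cyp4b1 from 358, 343 and 290.0 CPM to 147, 115 and 141 CPM. Aox3, an aldehyde oxidase, was at 48.3, 63.2 and 41.3 CPM against 23.3, 15.0 and 18.9 CPM. Pon1, a paraoxonase that hydrolyses esters and lactones, fell from 108, 167 and 139 CPM to 50.7, 23.6 and 36.7 CPM (-1.90 ± 0.31, adjusted p = 0.00110). Several of these enzymes are club cell products and belong to both lists, so the lists are not independent. Of 23 glutathione transferase and conjugation genes, 6 fell and none rose, with 3 called without ethanol animal 13. Gsta3 went from 214, 282 and 234 CPM to 106, 82.7 and 102 CPM and Gstm1 from 395, 573 and 534 CPM to 265, 225 and 209 CPM (adjusted p = 3.04e-06). The sequences within each of these families are close, so how reads were divided within them is uncertain. Of 22 alcohol and aldehyde dehydrogenases, 4 fell, with 2 called without ethanol animal 13. Aldh1a1, which oxidises retinal and other aldehydes, went from 905, 1089 and 960.3 CPM to 495, 417 and 489 CPM (-1.08 ± 0.17, adjusted p = 0.000119).

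The NRF2 target list fell in 8 members (26.7%) and rose in 2 (6.67%) of 30 tested, beside 2.25% and 3.51% of all genes. The falls numbered 5 without ethanol animal 13. Those that fell are the reductases Nqo1 and Cbr3, the peroxidase Gpx2, the glutathione transferases Gsta2, Gsta3 and Gstm1, the aldehyde dehydrogenase Aldh3a1 and the epoxide hydrolase Ephx1. The call of Gpx2 ended without animal 13, 63 or 65 (adjusted p = 0.103, 0.0689 and 0.0993), that of Cbr3 without animal 13 or 64 (adjusted p = 0.0815 and 0.0515) and that of Aldh3a1 without animals 13 and 65 together (0.115). Those that rose are the ferritin chains Fth1 and Ftl1, and the call of Ftl1 ended without animal 12, 13, 63, 64 or 65 (adjusted p = 0.192, 0.102, 0.0579, 0.158 and 0.0856). Members of the glutathione and thioredoxin branch, named after their values were seen, did not pass: Gclc was at 147, 146 and 148 CPM against 143, 163 and 124 CPM and Srxn1 at 23.9, 31.1 and 32.4 CPM against 22.8, 30.3 and 32.8 CPM. Nqo1, a quinone reductase (chr8:107388225-107403206), was at 6.92, 17.6 and 19.4 CPM against 2.48, 2.72 and 2.89 CPM (-2.44 ± 0.43, adjusted p = 0.000273). Gsta2 was at 5.49, 8.31 and 11.1 CPM against 2.91, 1.36 and 1.81 CPM, and its call ended without animal 13, 14, 64 or 65 (adjusted p = 0.0632, 0.114, 0.134 and 0.0976) and in limma-voom (0.0582).

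Of 23 genes of vitamin E uptake, transfer and breakdown, 5 fell and none rose (21.7%, beside 2.25%), with 3 called without ethanol animal 12, 3 without VEA animal 64 and 3 without VEA animal 65. Among the 5, 3 are carboxylesterases, put in the list because such enzymes split esters. Ces1f (chr8:93256236-93279747) was at 8.12, 19.2 and 12.1 CPM in ethanol and at 1.83, 1.26 and 2.05 CPM in VEA (-2.94 ± 0.47, adjusted p = 7.36e-05), 7.65-fold lower. Ces1g (chr8:93302369-93337308) was at 8.67, 20.8 and 20.1 CPM against 2.37, 2.62 and 4.22 CPM, 5.39-fold lower. Ces1d, the most abundant of them, was at 276, 297 and 268 CPM against 228, 183 and 165 CPM (-0.55 ± 0.13), and its call ended without animal 64 or 65 (adjusted p = 0.0540 and 0.0813). Sec14l3, a member of the tocopherol-binding SEC14 family that ciliated cells express, was at 3029.6, 2625 and 2544 CPM against 1609, 1644 and 2118 CPM, and its call ended without animal 12 or 64 (adjusted p = 0.0544 and 0.0574). Cyp4f15 was at 6.15, 8.96 and 2.48 CPM against 1.40, 1.99 and 0 CPM, and its call ended without animal 12, 13 or 65 (adjusted p = 0.0620, 0.145 and 0.105), in limma-voom (0.0552) and in a fit of these groups alone (0.0746). Ttpa and Scarb1, the tocopherol transfer protein and a receptor for lipoprotein vitamin E, were named after their values were seen and did not pass (-1.10 ± 0.67 and 0.36 ± 0.26). Of the remaining largest falls, Asgr1, a subunit of the asialoglycoprotein receptor best known from liver, went from 19.0, 25.8 and 25.4 CPM to 7.55, 3.56 and 5.66 CPM (-2.06 ± 0.32, adjusted p = 5.85e-05), and Lrtm2 from 10.8, 18.2 and 16.2 CPM to 5.50, 3.77 and 2.29 CPM. Dcdc2a, a doublecortin family protein of cilia, was at 8.89, 12.4 and 5.93 CPM against 3.99, 1.78 and 0 CPM, and its call ended without animal 12, 13, 64 or 65 (adjusted p = 0.0628, 0.113, 0.114 and 0.0760) and in a fit of these groups alone (0.157). Micalcl was at 3.95, 6.70 and 5.83 CPM against 2.16, 0.733 and 0.120 CPM, and its call ended without animal 13, 64 or 65 (adjusted p = 0.0690, 0.0949 and 0.102).

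All 12 of the largest falls, and 331 of the 332 genes called lower, had a log2 fold change below 0 against saline too, a comparison with the same VEA animals. The mean of the ethanol animals was above that of the saline animals in 11 of the 12, among them Cyp1a1, Nqo1, Ces1f and Ces1g. The same held for 238 of the 332 genes called lower. The genes were chosen because these VEA animals lay below these ethanol animals, which favours each of these counts. The counts were not made over all genes tested, and nothing is concluded from them about ethanol or VEA. No gene was called between ethanol and saline by edgeR (0 of 14727, 0%), 892 had an unadjusted p below 0.05, and DESeq2 called 1 (Axin2, a target of Wnt signalling named after its values were seen, adjusted p = 0.00480). Without saline animal 6 edgeR called 2, Axin2 and Col1a1, and without ethanol animal 12 it called 1, Cyp1a1 (adjusted p = 0.00159). Cyp1a1 (chr9:57687928-57703824) is the classic target of the aryl hydrocarbon receptor. It had the largest fall (-3.91 ± 0.79, adjusted p = 0.00718) among called genes of at least 5 CPM whose VEA and ethanol animals did not overlap. Its levels were 6.61, 7.67 and 2.04 CPM in saline animals 6, 8 and 10, 4.06, 55.3 and 44.0 CPM in ethanol and 2.81, 2.30 and 1.69 CPM in VEA, with ethanol animals 13 and 14 far above animal 12. Ethanol differed from saline by 2.67 ± 0.72 (adjusted p = 0.592). Against saline the difference of VEA was -1.25 ± 0.78 (adjusted p = 0.419), and the call against ethanol ended without animal 65 (adjusted p = 0.0528), in limma-voom (0.0795) and in a fit of these groups alone (0.167). Nqo1 was at 4.44, 7.91 and 3.89 CPM in saline, ethanol differed from saline by 1.44 ± 0.40 (adjusted p = 0.592), and VEA by -0.99 ± 0.43 (adjusted p = 0.183). Ces1g was at 6.22, 6.57 and 7.49 CPM in saline, with a difference of -1.14 ± 0.40 (adjusted p = 0.0868). For Ces1f, at 6.51, 6.33 and 7.01 CPM in saline, VEA was lower than saline as well (-1.95 ± 0.47, adjusted p = 0.00830). Cyp2f2, at 2387, 2167 and 2540.2 CPM in saline, was called lower than saline too (-1.11 ± 0.20, adjusted p = 0.00110). Scgb1a1 in saline was 47441, 55295 and 62601 CPM. Against saline 757 genes were called in VEA 6.25 (5.14%), 444 higher (3.01%) and 313 lower (2.13%), a comparison that shares the VEA animals with the one against ethanol. The number was 458 without saline animal 10, 392 without VEA animal 64, 483 without VEA animal 65 and 462 in a fit of these groups alone.

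**Figure D4:**
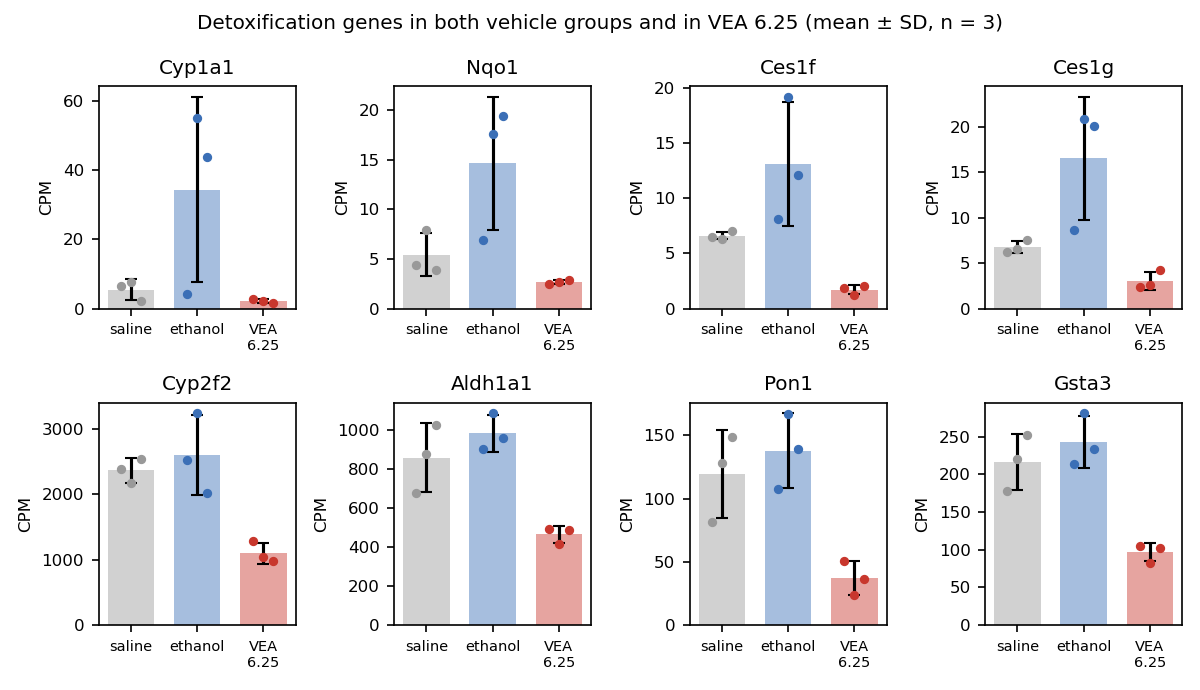
Bars give the mean CPM ± SD (n = 3) of 8 detoxification genes in saline, ethanol and VEA 6.25, with a point per animal and a vertical axis that starts at 0. Cyp1a1, Nqo1, Ces1f, Ces1g and Cyp2f2 were higher on average in ethanol than in saline. For Nqo1, Ces1f, Ces1g, Cyp2f2 and Pon1 every VEA animal lay below every animal of either vehicle, whereas for Cyp1a1 VEA and saline overlapped.

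Among lists of cell state, interferon and hypoxia genes gave 1 call each, while ER stress, glucocorticoid and metal-handling genes were called in larger shares than all genes (3.51% higher, 2.25% lower). Of 29 interferon-stimulated genes tested, none rose and 1 fell, with a median of -0.05. The call of the one that fell, Irf1 (-0.55 ± 0.15), ended without animal 12, 13, 63, 64 or 65 (adjusted p = 0.0844, 0.141, 0.0758, 0.0655 and 0.0632). Among 29 hypoxia and glycolysis genes 1 was lower, Bnip3 (-0.67 ± 0.20), whose call ended without animal 12, 13, 14, 64 or 65 (adjusted p = 0.0809, 0.115, 0.0518, 0.158 and 0.0823) and in limma-voom (0.0577). Of 31 genes of the integrated and ER stress response, 4 rose (12.9%), among them the mitochondrial folate enzyme Mthfd2, from 7.79, 4.86 and 6.69 CPM to 16.1, 20.6 and 25.8 CPM (1.69 ± 0.30, adjusted p = 0.000390), and the ER protein Sdf2l1, from 26.3, 25.9 and 22.2 CPM to 48.1, 56.6 and 50.4 CPM. Glucocorticoid targets went both ways, with 3 higher (15.8%) and 4 lower (21.1%) of 19, or 2 lower without animal 14: Dusp1, a MAP kinase phosphatase, fell from 119, 104 and 175 CPM to 80.0, 55.9 and 55.0 CPM (adjusted p = 0.000198), while Zbtb16, a transcription factor, was at 4.50, 0.540 and 5.83 CPM against 32.2, 31.1 and 42.6 CPM and its call ended without animals 13 and 65 together (0.0731). Steap4, a metalloreductase, rose from 2.74, 2.27 and 3.56 CPM to 10.1, 15.9 and 11.3 CPM within a list of metal-handling genes of which 4 of 21 rose (19.0%), or 2 without animal 12 or 64.

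The middle dose was set beside the other doses, which share the ethanol animals as control. At 3.12, 812 genes were called against ethanol (5.51%), 504 higher (3.42%) and 308 lower (2.09%). At 12.5 there were 1430 (9.71%), 807 higher (5.48%) and 623 lower (4.23%). Compared directly, no gene differed between 6.25 and 3.12 (0 of 14727, 0%) by edgeR, DESeq2 or limma-voom, with 607 genes at an unadjusted p below 0.05, although 7 were called with no count filter. The directly fitted difference of Saa3 between 6.25 and 3.12 was -0.23 ± 0.54, with an approximate 95% interval of -1.40 to 0.94 from the SE at 14 degrees of freedom, that of Slc26a4 -0.38 ± 0.28 (-0.98 to 0.22) and that of Scgb1a1 0.04 ± 0.15 (-0.28 to 0.37), so changes of these sizes were not resolved. For Clca1 the levels at 3.12 were 18.7, 42.5 and 91.7 CPM, wider apart than at 6.25, and the difference was 0.90 ± 0.54 (-0.27 to 2.06).

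Between 6.25 and 12.5, 1 gene was called (0.00679%), with 1196 at an unadjusted p below 0.05. Lgals3bp, a secreted galectin-binding protein that interferon induces (chr11:118392751-118402092), was at 47.4, 48.5 and 37.4 CPM in ethanol, 60.4, 57.3 and 74.3 CPM at 3.12, 47.6, 52.9 and 51.1 CPM at 6.25 and 75.4, 144 and 94.3 CPM at 12.5 (animals 66, 68 and 70). The difference of 6.25 from 12.5 was -1.05 ± 0.19 (adjusted p = 0.0331). The call ended without VEA animal 63 (0.122), 64 (0.141) or 65 (0.121), without VEA 12.5 animal 68 (0.446) or 70 (0.0626), in limma-voom (0.0562) and without animals 13 and 65 together (0.158), and DESeq2 gave the gene no adjusted p (unadjusted p = 2.54e-07). The number called between these doses depended on the setting: it was 66 by DESeq2, 59 in a fit of these groups alone, 161 with no count filter, 16 without VEA 12.5 animal 66 and 0 in limma-voom. It was 1 without VEA animal 63 (Plce1) and 1 without VEA animal 64 (Rassf3), both named after their values were seen. The interferon-stimulated list had a median difference of -1.23 between 6.25 and 12.5 with none of 29 called, and against ethanol 9 of 29 were called higher at 12.5. Ifi44 and Cxcl9, interferon-induced genes named after their values were seen, show where the spread lies: Ifi44 was at 11.3, 11.9 and 11.9 CPM at 6.25 and 17.2, 74.3 and 39.5 CPM at 12.5, and Cxcl9 at 1.62, 3.04 and 0.723 CPM and 5.25, 24.5 and 9.09 CPM, with animal 68 the highest for both. For the genes that rose most at 6.25, Cxcl1 was at 18.4, 14.5 and 16.7 CPM at 3.12 and 22.6, 25.5 and 42.8 CPM at 12.5. Its difference between 6.25 and 12.5 was -0.95 ± 0.35 (adjusted p = 0.403). Saa3 was at 821, 980.1 and 1447 CPM at 12.5, a difference of -1.09 ± 0.55 (adjusted p = 0.665).

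**Figure D5:**
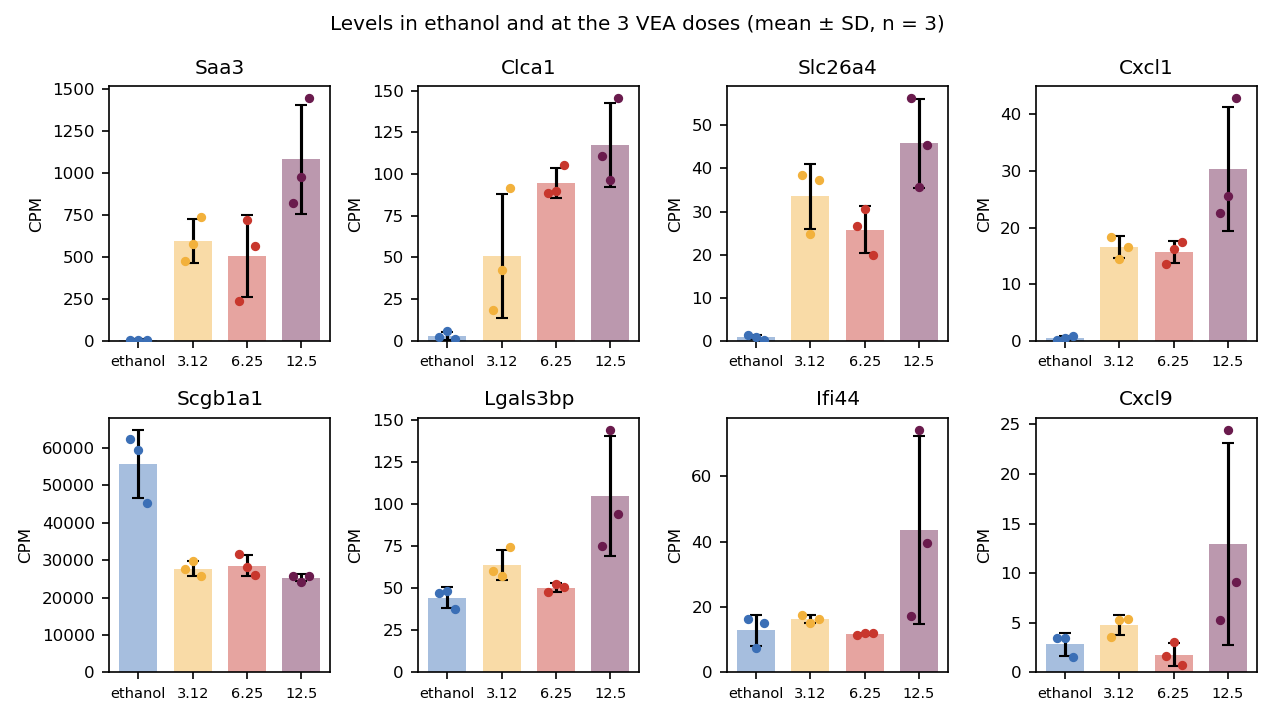
Bars give the mean CPM ± SD (n = 3) of 8 genes in ethanol and at VEA 3.12, 6.25 and 12.5, with a point per animal and a vertical axis that starts at 0. The animals at 3.12 and 6.25 overlap for Saa3, Cxcl1 and Slc26a4, Scgb1a1 is low at each VEA dose, and Lgals3bp, Ifi44 and Cxcl9 are spread most widely at 12.5.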

How the data were processed

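Lung RNA was measured by 3′ mRNA sequencing (QuantSeq) from 500 ng of RNA per animal, per the labels' protocols, in 21 libraries of 7 groups of 3. The raw read counts per gene symbol were deposited by the authors. Bowtie2, bedtools and mm10 are named in the submitters' processing notes, without versions, and the annotation and strand setting used for counting are not given in the sources used here, so overlapping and antisense genes cannot be told apart. Each file had 23282 rows, and rows of one symbol were summed (35 symbols), leaving 23238.

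Genes passing filterByExpr (14727) were tested in edgeR 4.0.16 (R 4.3.3) with TMM scaling and robust quasi-likelihood fits over all 21 libraries, which share 1 estimate of spread with 14 residual degrees of freedom. The SE is the absolute log2 fold change divided by the square root of F, and levels are CPM from TMM library sizes. Members and gene lists were chosen with earlier results of these data known. Lists share members (Lcn2 is in the acute phase, neutrophil, type II cell, glucocorticoid and metal lists), so their counts are not independent. The genes named are, among called genes of at least 5 CPM whose animals did not overlap, the 12 largest rises and 12 largest falls on the log2 scale and the 5 largest each way in CPM, leaving out unnamed gene models, small RNA, ribosomal RNA and variable segments. Up to 8 called members of each list by smallest p were added, the 2 of smallest p where fewer than 2 were called, up to 5 genes each way called between doses, and families of at most 5. Other genes are said to be named after their values were seen. Alternatives used DESeq2 1.42.0, limma 3.58.1, other scaling and filters, and left-out animals. The fits were tested on a single simulated data set with the same spread for every gene, so its rates need not hold for these data. There edgeR recovered 5.36% of 1.5-fold, 41.1% of 2-fold and 100% of 4-fold changes, set in genes of at least 5 CPM. False calls were 3.70% of the calls by edgeR, 16.4% by DESeq2 and 6.25% by limma-voom. Libraries of one group differed far beyond sampling noise (chi-square over its degrees of freedom, 8.14 to 40.5), so none were merged. Counting intervals cover counting error only. Gene positions are from GENCODE M21 (GRCm38) and promoters from RefSeq (GRCm38.p6). Figures used matplotlib 3.10.9.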

Additional observations from a re-analysis of the deposited data

Results flagged for a closer look

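Lgals3bp, a secreted galectin-binding protein, was the 1 gene called between the VEA doses 6.25 and 12.5 by a direct test (edgeR quasi-likelihood test, log2 difference of 6.25 from 12.5 of -1.05, adjusted p = 0.0331). All 3 animals at 6.25 were below all 3 at 12.5, but the call was lost in 7 alternatives, with adjusted p from 0.0562 (limma-voom) to 0.446 (without animal 68, where the difference was -0.76), and DESeq2 gave the gene no adjusted p. Whether its change from ethanol differs between these doses therefore rests on few animals.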

How the results depend on the processing

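No paired analysis was possible because the animal numbers differ between the groups compared. For VEA 6.25 against ethanol (517 higher, 332 lower, 849 called), 252, 119 and 371 genes had also a log2 change of at least 1, and without ethanol animal 13 and VEA animal 65 together the counts were 197, 89 and 286. Leaving out 1 animal gave 281 to 496 higher, 140 to 315 lower and 427 to 811 called. RLE size factors, DESeq2, limma-voom, no count filter, a fit of these groups alone and a fit without Rn45s and haemoglobin gave 694 to 1116 called. Among 191 named genes called, none changed direction under any alternative run, and 464 of 2670 pairs of such a gene and an alternative lost the call. Against VEA 3.12 (0 called), no count filter gave 5 higher, 2 lower and 7 called. Against VEA 12.5 (0 higher, 1 lower), DESeq2 gave 51, 15 and 66 called, no count filter 81, 80 and 161, the groups alone 28, 31 and 59, and limma-voom and the joint removal of animals 13 and 65 gave 0. Leaving out 1 animal gave 0 to 1 higher, 0 to 15 lower and 0 to 16 called. For ethanol against saline (0 called), DESeq2 gave 1 higher, no count filter 13 higher, 4 lower and 17 called, and leaving out 1 animal 0 to 2 higher and 0 to 2 called. For VEA 6.25 against saline (444, 313 and 757), with alternatives chosen after seeing the data, DESeq2 gave 492 lower, the groups alone 267, 195 and 462, a log2 change of at least 1 left 221, 98 and 319, and the joint removal gave 164 lower and 473 called. Leaving out 1 animal gave 240 to 459 higher, 152 to 356 lower and 392 to 815 called. A fit that leaves out animals has fewer samples, and a fold threshold can only lower a count. The cause of the other differences was not tested.

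With 3 animals a group, calls of small changes depended on single animals, and genes below a few CPM rest on few counts, so a gene not called was not shown to be level.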
